A study of Mus musculus with 6 samples.

Results

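Gene expression in cultured mouse hippocampal neurons was compared between untreated cultures and cultures kept for 0.5 h in high potassium, by RNA sequencing. The comparison rests on 4 of the 6 libraries of the series, the 2 labelled as 0.5 h of KCl and the 2 labelled as untreated. All of them came from C57bl/6 neurons dissected at E16.5 (embryonic day) and cultured for 10 days. The treated neurons received 55 mM KCl, the untreated ones none, and no genetic change is named in the labels. A further pair of libraries, after 3 h in the same KCl, was used for side-by-side levels and for the alternative fits that share its spread. The labels number the libraries of each group 1 and 2 as biological duplicates without naming what was duplicated. The p-values therefore speak of these samples only, and part of their spread may be technical.

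High extracellular potassium depolarises neurons and opens voltage-gated calcium channels, and the calcium that enters activates kinases which modify transcription factors already bound at promoters. Immediate early genes are the first to respond, because their transcription needs no new protein. Many of them encode transcription factors (the Fos, Jun, Egr, Nr4a and Klf families and Npas4) that act on a later set of genes, and others encode synaptic proteins such as Arc, phosphatases that shut signalling down and proteins that destabilise mRNA.

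The 4 libraries held 141865913 and 133219004 read counts (untreated) and 136170697 and 115900044 (0.5 h KCl), and the most counted gene, mt-Co1, took 1.13% to 1.24% of them. Pan-neuronal markers were high throughout, with a summed level of 2655 to 2829 cRPKM over 11 genes in the untreated libraries and 2517 to 2759 at 0.5 h, and the cultures also held astrocyte transcripts (1053 to 1689 cRPKM over 9 genes) and progenitor transcripts (822 to 1451 over 9 genes). In each library Fabp7 alone made up most of the progenitor sum. Microglial and endothelial markers summed to under 2 cRPKM in each library. The replicate numbers differed from each other more than the treatments did: the first principal component, with 76.7% of the variance, separated replicate 1 from replicate 2, and the second, with 16.2%, separated KCl from untreated. Ttr, a choroid plexus transcript, showed the gap between numbers, with 0.08 and 0.04 cRPKM in the replicate 1 libraries and 136 and 189 in the replicate 2 libraries. Each change below was therefore estimated within replicate number.

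The 250 bases before the start of each of the 6 genes with the largest rises and a promoter entry are shown first, because cyclic AMP response elements (CRE) in such promoters are known docking sites for CREB, a factor that calcium signalling activates. Sequences and starts are from RefSeq on GRCm38.p6, in the direction of transcription: Fosb at chr7:19310046-19310295 (minus strand), Fos at chr12:85473640-85473889 (plus strand), Npas4 at chr19:4989972-4990221 (minus strand), Klf4 at chr4:55532476-55532725 (minus strand), Ccn1 at chr3:145649986-145650235 (minus strand) and Junb at chr8:84978749-84978998 (minus strand). Capitals mark each CRE core (TGACG, or CGTCA where it lies on the other strand) and each TATA box (TATAAA).
Fosb: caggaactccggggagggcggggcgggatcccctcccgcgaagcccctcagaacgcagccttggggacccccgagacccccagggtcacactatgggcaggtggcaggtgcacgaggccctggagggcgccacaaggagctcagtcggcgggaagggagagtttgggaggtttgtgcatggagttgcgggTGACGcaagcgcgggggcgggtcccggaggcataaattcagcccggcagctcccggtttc
Fos: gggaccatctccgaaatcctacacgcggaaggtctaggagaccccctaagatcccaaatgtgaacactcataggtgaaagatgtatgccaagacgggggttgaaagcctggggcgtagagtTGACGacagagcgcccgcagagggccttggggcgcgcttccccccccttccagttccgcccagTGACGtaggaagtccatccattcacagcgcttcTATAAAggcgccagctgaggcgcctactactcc
Npas4: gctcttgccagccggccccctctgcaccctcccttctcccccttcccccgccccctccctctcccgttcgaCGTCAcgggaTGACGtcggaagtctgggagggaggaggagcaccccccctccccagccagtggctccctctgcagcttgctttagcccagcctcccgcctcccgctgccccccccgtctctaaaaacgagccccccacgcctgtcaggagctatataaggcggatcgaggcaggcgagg
Klf4: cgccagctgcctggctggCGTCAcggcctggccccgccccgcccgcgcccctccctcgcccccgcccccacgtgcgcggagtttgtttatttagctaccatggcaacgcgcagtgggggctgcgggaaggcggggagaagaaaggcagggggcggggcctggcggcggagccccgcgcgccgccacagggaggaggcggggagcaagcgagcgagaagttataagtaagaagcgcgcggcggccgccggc
Ccn1: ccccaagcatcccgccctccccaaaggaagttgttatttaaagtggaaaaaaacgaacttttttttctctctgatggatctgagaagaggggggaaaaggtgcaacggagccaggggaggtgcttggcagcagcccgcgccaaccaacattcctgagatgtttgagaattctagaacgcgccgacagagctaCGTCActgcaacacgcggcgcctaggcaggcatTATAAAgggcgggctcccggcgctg
Junb: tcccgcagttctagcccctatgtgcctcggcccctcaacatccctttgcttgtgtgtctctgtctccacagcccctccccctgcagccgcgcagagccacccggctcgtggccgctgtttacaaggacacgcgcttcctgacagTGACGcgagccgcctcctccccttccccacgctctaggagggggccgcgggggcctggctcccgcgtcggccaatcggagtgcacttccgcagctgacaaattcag
Each of these promoters held at least 1 CRE core. In Fosb it lay from 60 to 56 bases before the start, in Fos from 66 to 62 with another from 129 to 125, and in Ccn1 from 58 to 54. The cores of Npas4 lay on opposite strands, from 179 to 175 and from 169 to 165 bases before the start, whereas that of Klf4 was farthest away, from 232 to 228. Fos and Ccn1 also had a TATA box, from 33 to 28 and from 25 to 20 bases before the start.

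Both strands of these 250-base windows were searched for the CRE core TGACG, the full site TGACGTCA (which contains the core), the AP-1 site TGANTCA, the Egr site GCGTGGGCG, the CArG box of serum response factor and the TATA box TATAAA. The core was present in 25.3% of the 11943 tested genes with a promoter entry, in 40.1% of the 162 such genes that rose, in 57.7% of the 26 that rose at least 2-fold and in 25% of the 48 that fell. The full site was in 2.53% of all promoters, in 9.88% of those of genes that rose, in 7.69% of those that rose at least 2-fold and in 6.25% of those that fell (3 of 48), and the TATA box was in 6.82% of all, 12.3% of those that rose and 6.25% of those that fell. For the AP-1 site the shares over all promoters and those of genes that rose were 4.28% and 4.32%. In the same order they were 1.01% and 1.23% for the Egr site and 1.22% and 2.47% for the CArG box. Where a gene had several starts, the window before the most upstream was used, and bases beyond these 250 were not searched. A match is a description of the letters and not a measured binding site.

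After 0.5 h, 196 of 15687 tested genes were higher (1.249%) and 78 were lower (0.4972%) at an adjusted p under 0.05 (edgeR's quasi-likelihood test with Benjamini-Hochberg adjustment, replicate number as a block). The rises were the larger changes: 14 genes rose at least 4-fold and 33 at least 2-fold, against 1 and 3 that fell by as much. A further 30 rises and 7 falls lay between 1.5- and 2-fold, and 133 rises and 68 falls were under 1.5-fold. The median called rise was 1.30-fold and the median called fall 1.22-fold, beside a median log2 change of 0.00 over all tested genes. Both treated libraries lay above both untreated ones for 169 of the 196 rises, where 11.8% of all tested genes did so, and below them for 57 of the 78 falls, where 9.75% did.

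**Figure D1:**
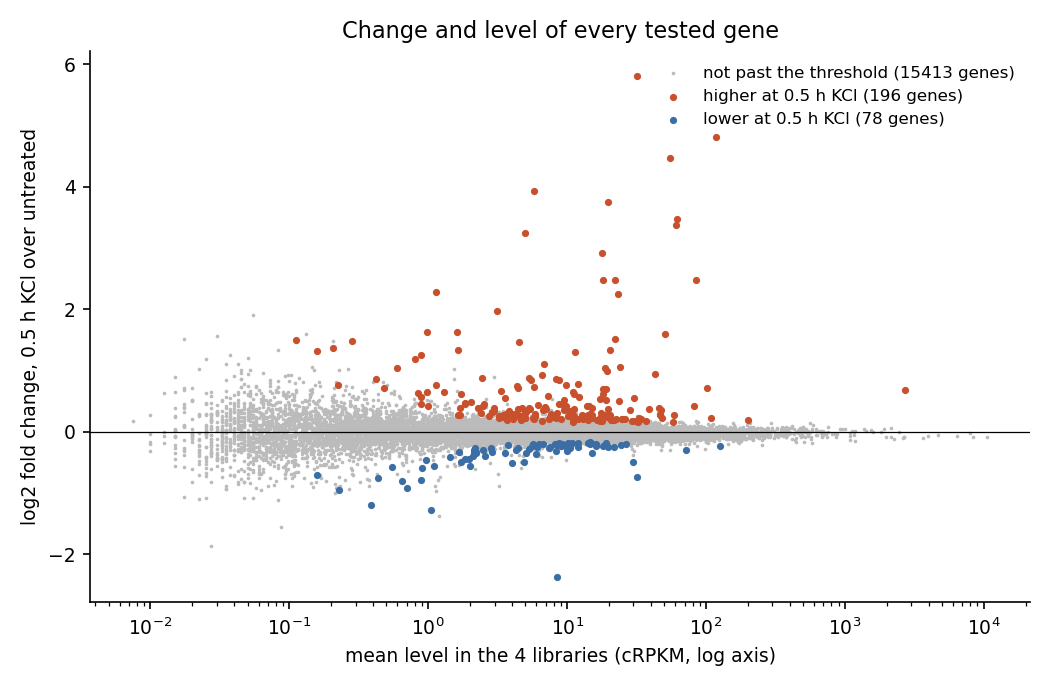
Log2 fold change at 0.5 h KCl over untreated (vertical axis) against the mean level in the 4 libraries in cRPKM (horizontal log axis), 1 point per tested gene. The 196 genes called higher reach a log2 change of 5.81 and the 78 called lower reach -2.37, while the 15413 others lie around 0 and spread more widely below 1 cRPKM.

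How many genes pass depended strongly on the fit. Without the replicate block edgeR called 4 rises (Ccn1, Fos, Npas4 and Nr4a1) and 0 falls in the same 4 libraries (150 and 51 at an unadjusted p under 0.05). The fit of all 6 libraries with the block gave 13 rises and 0 falls (199 and 80 unadjusted). Leaving out a library, with the other 5 in the fit, gave 25 rises and 1 fall without untreated replicate 1, 29 and 0 without untreated replicate 2, 31 and 1 without KCl replicate 1, and 25 and 1 without KCl replicate 2. With DESeq2's size factors the split was 235 higher and 174 lower. Of the 196 rises, 107 were also called by both DESeq2 and limma-voom on the same 4 libraries with the block, as were 25 of the 78 falls.

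**Figure D2:**
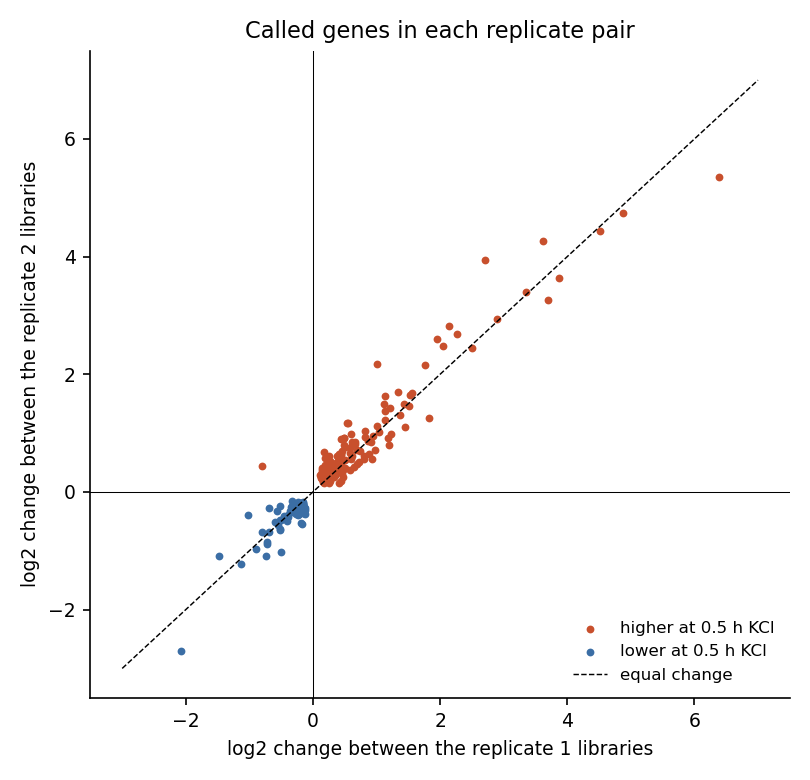
Log2 change between the replicate 1 libraries (horizontal) and between the replicate 2 libraries (vertical) for the 274 called genes, with a dashed line of equal change. In 195 of the 196 rises and in 78 of the 78 falls both pairs moved the same way. The exception is Ttr, at -0.80 and 0.44.

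The largest rises were in the Fos family and Npas4, transcription factor genes that were low in untreated neurons. Fosb (ENSMUSG00000003545), whose protein pairs with Jun proteins to form AP-1, read 0.76 and 1.47 cRPKM in the untreated libraries and 63.6 and 61.1 at 0.5 h. This is 56.1-fold, a log2 change of 5.81 ± 0.16 (SE, n = 2 against 2, edgeR adjusted p = 1.07e-09). Both treated libraries were far above both untreated ones, which differed from each other by nearly 2-fold, and the 95% interval ran from 5.47 to 6.15 on the log2 scale. Fos (ENSMUSG00000021250), the other main AP-1 partner, went from 7.98 and 8.14 cRPKM to 237 and 223, a log2 change of 4.81 ± 0.05 (edgeR adjusted p = 2.89e-13). The neuron-specific factor gene Npas4 (ENSMUSG00000045903), which responds to calcium entry, went from 4.84 and 4.55 cRPKM to 111 and 101, a log2 change of 4.48 ± 0.05 (edgeR adjusted p = 2.89e-13). For Fos and Npas4 the libraries of a group lay close together and the groups were far apart. Fosb missed the threshold without the block (adjusted p = 0.14) and in the fit of all 6 libraries with the block (0.068), whereas Fos and Npas4 passed both.

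The Jun genes rose by unequal amounts. Junb was at 8.18 and 12.2 cRPKM untreated and at 107 and 119 after KCl, a log2 change of 3.47 ± 0.08. Jun was at 29.8 and 27.8 cRPKM and then at 57.6 and 55.2 (log2 0.95 ± 0.04), and Jund, the most abundant of them before treatment, at 43.6 and 40.4 and then at 50.5 and 52.9 (log2 0.28 ± 0.04). All 3 passed the threshold, with edgeR adjusted p of 2.62e-10, 3.26e-08 and 6.02e-03, and in none of them did the groups overlap. The remaining Fos relatives were not called. Fosl2 was at 46.1 and 31.1 cRPKM untreated and 49.7 and 33.0 at 0.5 h, with an interval of -0.01 to 0.16 on the log2 scale, and Fosl1 was near the detection limit at 0.13 to 0.27 cRPKM, with an interval of -0.65 to 0.99. Exons of Junb overlap those of Prdx2 on the other strand, and those of Jun and Jund overlap antisense transcripts. The library kit does not mark strand, so reads from such partners cannot be told apart here or in other overlaps. Exons of 35.0% of tested genes overlap another gene, and only some of these overlaps are named below.

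**Figure D3:**
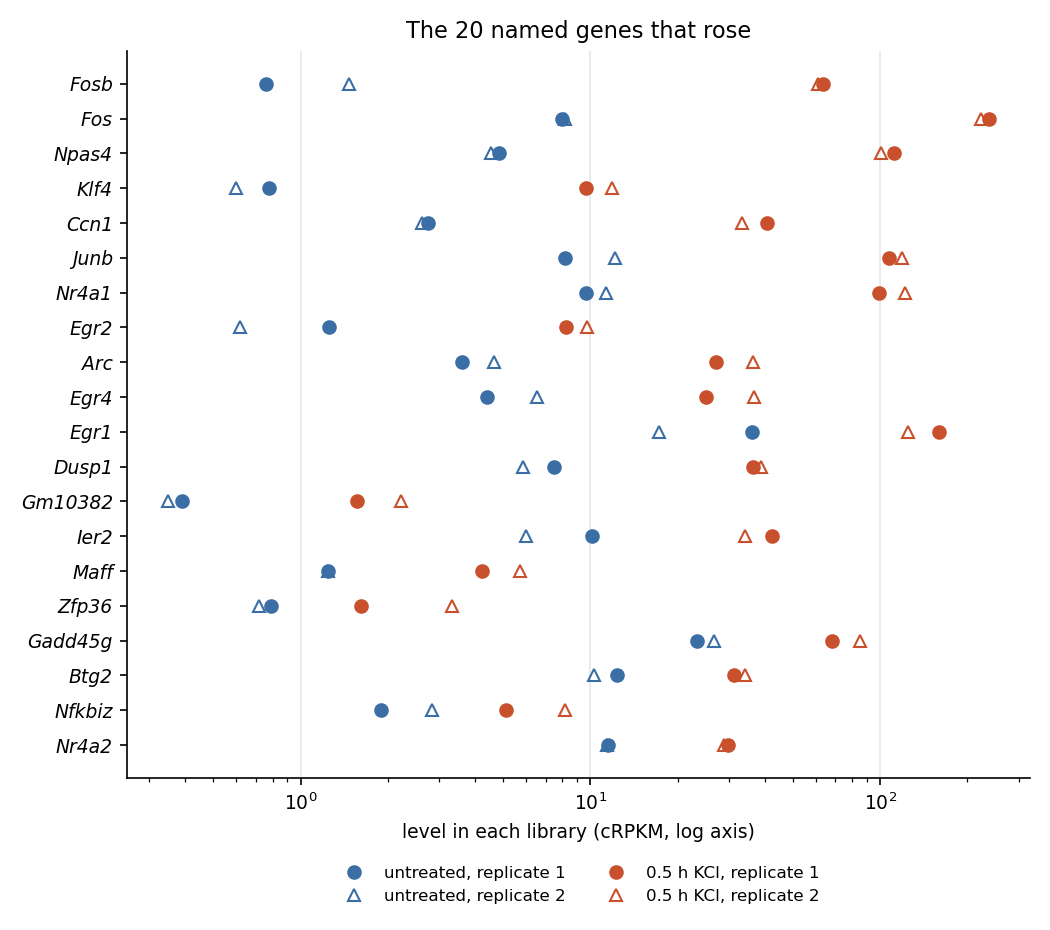
Level in each of the 4 libraries (cRPKM, log axis) of the 20 genes with the largest rises among those whose mean level was 1 cRPKM or more, ordered by fold change from Fosb (56.1-fold) to Nr4a2 (2.54-fold). Circles are replicate 1 and triangles replicate 2, and in each gene both 0.5 h values lie to the right of both untreated values.

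All 4 Egr genes, zinc finger factors that bind GC-rich promoter sites, rose. Egr2 had 0.935 ± 0.446 cRPKM untreated (SD, n = 2; the lower library was at 0.62) and 8.26 and 9.73 at 0.5 h (log2 3.24 ± 0.18). Egr4 went from 4.41 and 6.55 cRPKM to 25.1 and 36.7 (log2 2.47 ± 0.04), and Egr3 from 9.81 and 16.3 to 22.7 and 29.0 (log2 0.99 ± 0.07). Egr1 was the most abundant: 36.0 and 17.2 cRPKM untreated and 159.5 and 125 after KCl, a log2 change of 2.47 ± 0.12 (edgeR adjusted p = 2.13e-07). Its untreated libraries differed from each other by more than 2-fold, yet both treated values were over 3 times the higher of them. Without the block Egr1 had an adjusted p of 1.00.

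Among the orphan nuclear receptors, Nr4a1 rose from 9.64 and 11.3 cRPKM to 99.2 and 121 (log2 3.37 ± 0.04, edgeR adjusted p = 6.67e-13) and Nr4a2 from 11.5 and 11.4 to 29.9 and 29.0 (log2 1.34 ± 0.04). The third member, Nr4a3, was at 44.3 and 41.2 cRPKM before and 48.5 and 42.9 after treatment, an interval of -0.02 to 0.17 on the log2 scale. The family thus held 1 gene up 10.4-fold and 1 that stayed within 1.5-fold. Of the Kruppel-like factors, Klf4 rose from 0.78 and 0.60 cRPKM to 9.66 and 11.9 (log2 3.93 ± 0.11) and Klf2 from 0.54 and 0.49 to 1.19 and 1.31 (2.38-fold), while Klf10 read 10.0 and 12.4 and then 9.32 and 10.6 (log2 -0.19 ± 0.04, edgeR adjusted p = 0.064). Ier2, a short early response gene, rose 4.73-fold and Maff, a small Maf factor, 3.91-fold.

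Over the list of 31 immediate early transcription factors, 20 rose, none fell and the median log2 change was 0.95. Among all tested genes 1.249% rose and 0.4972% fell. The smallest called rises were in Srf, the serum response factor itself (11.7 and 12.7 cRPKM, then 16.1 and 17.1; log2 0.42 ± 0.04), Atf3, a stress-induced factor (0.55 ± 0.07), Nfil3, a repressor of clock-controlled genes (0.38 ± 0.05), and Jund. These changes, 1.21- to 1.46-fold, were larger than the spread between the pairs, though the groups of Nfil3 overlapped. Klf10 also passed, as lower, with DESeq2's size factors or library totals as the scaling. Without the block 3 of the 31 passed, and with all 6 libraries and the block 6 did.

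Of 40 activity-regulated effector genes 13 rose, where 1.249% of all tested genes did, and none fell, with a median log2 change of 0.07. Ccn1, a secreted matricellular protein gene, rose from 2.75 and 2.62 cRPKM to 40.5 and 33.3 (log2 3.76 ± 0.06, edgeR adjusted p = 3.88e-12). Arc, whose protein drives AMPA receptor endocytosis at synapses, rose from 3.60 and 4.66 cRPKM to 27.0 and 36.5 (log2 2.92 ± 0.04, edgeR adjusted p = 1.91e-12). In both genes the lower treated library was more than 5 times the higher untreated one. Gadd45g, which belongs to a family of stress sensors tied to DNA demethylation, rose from 23.4 and 26.6 cRPKM to 68.1 and 85.3 (log2 1.59 ± 0.04), and its relative Gadd45b from 3.32 and 5.31 to 7.88 and 10.8 (log2 1.10 ± 0.07). Ptgs2, the inducible cyclooxygenase gene, was still under 1 cRPKM in all 4 libraries, at 0.09 and 0.21 and then 0.32 and 0.51, and rose by log2 1.48 ± 0.15 (edgeR adjusted p = 3.02e-04).

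Other effector rises ran from 1.18-fold (Arl5b) to 2.47-fold (Sik1). Sik1, a salt-inducible kinase gene, rose from 7.28 and 5.78 cRPKM to 16.0 and 16.6. Fbxo33 and Arl4d rose 1.85- and 1.82-fold. Plk2, a kinase gene tied to synaptic scaling, read 43.2 and 38.8 cRPKM and then 51.7 and 55.1 (log2 0.36 ± 0.05), and Mcl1, a survival gene of the Bcl2 family, 26.0 and 23.0 and then 33.8 and 30.0 (0.36 ± 0.04). Groups did not overlap in any of these 5 genes. Other well known activity genes were held at their untreated level: Bdnf, the neurotrophin gene, had 7.0 and 11.7 cRPKM untreated and 7.47 and 11.8 at 0.5 h (interval -0.07 to 0.11), Homer1 12.8 and 12.3 and then 13.0 and 12.3 (-0.09 to 0.07), and the pentraxin gene Nptx2 6.67 and 7.19 and then 6.55 and 6.92 (-0.17 to 0.04). All 3 intervals lay well within 1.5-fold. They are for gene totals, which do not separate the transcript forms of a gene.

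Of 29 feedback inhibitors of signalling 9 rose and 1 fell (median log2 0.06), where 1.249% and 0.4972% of all tested genes did. Dusp1, a phosphatase that inactivates MAP kinases, rose from 7.48 and 5.87 cRPKM to 36.4 and 38.7 (log2 2.47 ± 0.07, edgeR adjusted p = 3.07e-09). Dusp5 and Dusp6, phosphatases that act on ERK, rose 1.68- and 1.63-fold. Gem, a small GTPase that restrains calcium channels, went from 4.43 and 4.58 cRPKM to 7.89 and 9.61 (log2 0.93 ± 0.06), and Rgs2, which shortens G protein signals, from 11.99 and 16.4 to 20.01 and 24.0 (0.62 ± 0.05). Groups did not overlap in Gem or Rgs2. Spry1, Spry2, Rgs4 and the eIF2 phosphatase subunit gene Ppp1r15a made up the rest of the rises, at 1.17- to 1.46-fold. Trib2, a pseudokinase gene, was the 1 that fell, from 29.7 and 22.5 cRPKM to 26.6 and 19.3 (log2 -0.22 ± 0.04, edgeR adjusted p = 0.015), with overlapping groups. Exons of Dusp1 overlap those of Ergic1 on the other strand.

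Of 21 genes for mRNA decay and antiproliferative proteins 8 rose, where 1.249% of all tested genes did, and none fell (median log2 0.16). Btg2, which recruits the deadenylase complex, rose from 12.4 and 10.3 cRPKM to 31.3 and 34.1 (log2 1.51 ± 0.07), and its relatives Tob1 and Tob2 from 14.7 and 15.8 to 29.8 and 35.0 (1.06 ± 0.04) and from 6.78 and 7.65 to 12.5 and 12.3 (0.76 ± 0.05). Zfp36, which binds AU-rich elements and promotes decay, rose from 0.79 and 0.72 cRPKM to 1.61 and 3.32 (log2 1.63 ± 0.19, edgeR adjusted p = 8.35e-04). Its treated libraries differed from each other by about 2-fold, DESeq2 did not call it (adjusted p = 0.21), and an antisense transcript overlaps it. The related Zfp36l2 and Zfp36l1 rose 1.73- and 1.41-fold. Nfkbiz, an inducible member of the NF-kappaB inhibitor family, rose from 1.89 and 2.84 cRPKM to 5.13 and 8.17 (log2 1.46 ± 0.05). In its list of 19 NF-kappaB and cytokine genes only Csf1 also passed (log2 0.23 ± 0.04).

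Fzd5, a Wnt receptor gene just under the 1 cRPKM floor for the largest rises, went from 0.40 and 0.54 cRPKM to 1.20 and 1.77 (log2 1.62 ± 0.07), and was among the 13 rises called with all 6 libraries and the block.

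Below the threshold little of this size was seen among genes at 1 cRPKM or more on average. Only Gm8265, a predicted gene, rose at least 1.5-fold in both pairs without overlap and without passing, from 1.05 and 0.96 cRPKM to 2.5 and 1.65 (edgeR adjusted p = 0.27). In the other direction Gm2174 went from 2.07 and 1.42 cRPKM to 1.01 and 0.30 (0.18), and Gm12184 from 3.84 and 4.55 to 2.45 and 2.09 (0.26). At any level there were 37 such rises and 30 such falls. Gm8265 had 6 to 16 counts per library, Gm2174 2 to 17 and Gm12184 8 to 20, so their changes rest on few reads. Exons of Gm2174 and Gm12184 also overlap genes on the other strand. At an unadjusted p under 0.05, 8.22% of tested genes were higher and 8.41% lower.

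The deepest fall was in Hes5, a Notch target that keeps neural progenitors undifferentiated. It read 12.4 and 15.9 cRPKM in the untreated libraries and 2.98 and 2.5 at 0.5 h. This is a log2 change of -2.37 ± 0.11 (edgeR adjusted p = 1.88e-07). Both treated libraries were far below both untreated ones. It was the only gene to fall at least 4-fold. An annotated transcript overlaps Hes5 on the other strand. In bulk RNA, fewer cells of a type and less RNA per cell cannot be told apart. Beside the fall of Hes5, other progenitor markers read as follows: Sox2 was at 42.2 and 42.0 cRPKM untreated and at 38.8 and 43.6 at 0.5 h, Nes at 9.97 and 4.65 and then 10.1 and 4.31, and Fabp7 at 1231 and 641 and then 1254 and 690.1. The intervals of these 3 lay within 1.5-fold. Of the 9 progenitor markers 2 fell, Hes5 among them, where 0.4972% of all tested genes did, and none rose.

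The rest of the Notch pathway moved little. Of 25 tested members 2 rose and 1, Hes5, fell, where 1.249% and 0.4972% of all tested genes did. The median log2 change was 0.02. Hes1, a related repressor, rose from 4.33 and 3.77 cRPKM to 5.67 and 5.11 (log2 0.39 ± 0.06, edgeR adjusted p = 9.08e-03), against the direction of Hes5, and the receptor gene Notch1 from 11.7 and 8.72 to 13.4 and 11.3 (0.26 ± 0.04). DESeq2 did not call Hes1 (DESeq2 adjusted p = 0.15), and the groups of Notch1 overlapped.

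**Figure D4:**
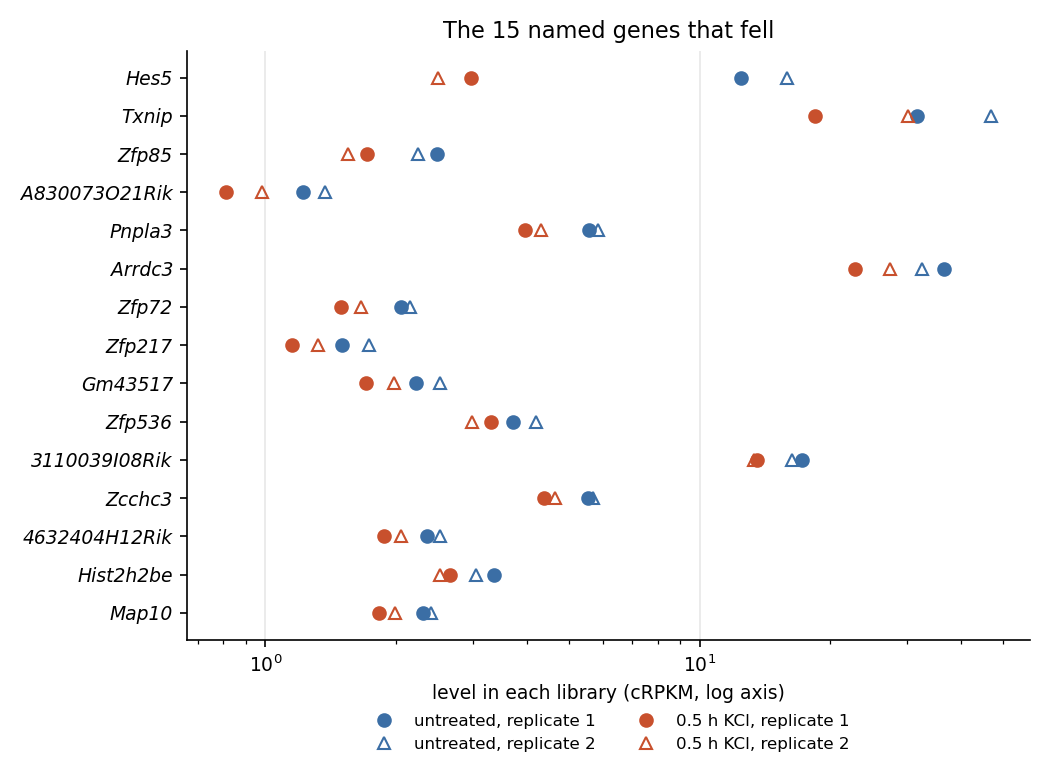
Level in each of the 4 libraries (cRPKM, log axis) of the 15 genes with the largest falls among those whose mean level was 1 cRPKM or more. Hes5 stands apart at a log2 change of -2.37, and from Txnip (-0.73) to Map10 (-0.32) both 0.5 h values lie a short way to the left of both untreated values.

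Among the other falls, Txnip and Arrdc3 encode arrestin-domain proteins, the first a known brake on glucose uptake. Txnip went from 31.7 and 47.0 cRPKM to 18.4 and 30.2 (log2 -0.73 ± 0.04, edgeR adjusted p = 8.83e-07) and Arrdc3 from 36.6 and 32.5 to 22.8 and 27.4 (-0.49 ± 0.07, 5.44e-03). The groups did not overlap, though the pair changes of Arrdc3, -0.69 and -0.28, were unequal and DESeq2 did not call it (adjusted p = 0.51). Pnpla3, a lipid droplet protein gene, fell from 5.57 and 5.83 cRPKM to 3.95 and 4.30 (-0.49 ± 0.04). Zinc finger genes Zfp85, Zfp72, Zfp217 and Zfp536 fell by log2 changes of -0.56, -0.43, -0.41 and -0.35. DESeq2 called Zfp217 and Zfp536 but not Zfp85 or Zfp72 (DESeq2 adjusted p = 0.47 for each). These Zfp genes belong to a list of 349 zinc finger genes of which 7 fell and 2 rose (Zfp36 and Zfp335), with a median of -0.01. Over all tested genes 0.4972% fell and 1.249% rose. The 7 other named falls (A830073O21Rik, Gm43517, 3110039I08Rik, Zcchc3, 4632404H12Rik, Hist2h2be and, with the smallest change, Map10) lay between -0.56 and -0.32. Of these 7, DESeq2 called only 3110039I08Rik and Zcchc3. Hist2h2be belongs to a family of near-identical histone genes, so its reads may be shared with copies. Exons of Txnip and Zfp85 overlap antisense transcripts. None of the 78 falls passed without the block or with all 6 libraries.

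Synapse and channel genes had mostly negative estimates of small size, and few of them passed the threshold. Of 49 excitatory synapse genes 45 had a negative estimate, and the median log2 change was -0.09. None rose and 3 fell, where 0.4972% of all tested genes did. The 3 were the glutamate receptor genes Grm4 (4.39 and 5.18 cRPKM, then 3.82 and 4.24; log2 -0.27 ± 0.05), Grin2a (5.47 and 7.69, then 5.05 and 6.08; -0.25 ± 0.05) and Grik3 (22.7 and 16.0, then 20.6 and 13.2; -0.23 ± 0.04). Only in Grm4 did the groups not overlap. DESeq2 called Grik3 but not Grm4 (adjusted p = 0.25) or Grin2a (0.11), and the estimate for Grin2a turned to 0.078 without untreated replicate 2. Grin2b, which encodes an NMDA receptor subunit, missed at an edgeR adjusted p of 0.051 (32.0 and 31.8 cRPKM, then 29.7 and 23.8). All 49 genes stayed within 1.5-fold by their intervals, as did 86.8% of all tested genes and 98.5% of those at 1 cRPKM or more. At an unadjusted p under 0.05, 24 of the 49 were lower, where 8.41% of all tested genes were.

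Inhibitory synapse genes, presynaptic genes and ion channels had estimates of similar size. Over all tested genes 0.4972% fell, and at an unadjusted edgeR p under 0.05, 8.22% were higher and 8.41% lower. Of 22 inhibitory synapse genes 2 fell (Gabrg3, log2 -0.22 ± 0.04, and the GABA synthesis gene Gad2, -0.19 ± 0.04) and the median was -0.08. Gad2 differed more between replicate numbers than between treatments, with 10.2 and 24.1 cRPKM untreated and 9.14 and 21.3 at 0.5 h. No presynaptic gene of 33 passed in edgeR (median -0.09), with 13 lower and 1 higher at an unadjusted p under 0.05, and DESeq2 called 1 lower. No member of 38 calcium and sodium channels and pumps passed (median -0.07), again with 13 lower and 1 higher unadjusted, and DESeq2 called 2 lower. Of 47 potassium channels 2 fell, Kcnk10 (-0.27 ± 0.05) and Kcnc1 (-0.22 ± 0.04), and none rose (median -0.10). Every member of these 4 lists stayed within 1.5-fold, as did 98.5% of all genes at 1 cRPKM or more. With the library total as the only scaling, 12 of the 49 excitatory synapse genes and 10 of the 47 potassium channels were lower. In that fit 1 potassium channel was higher, and over all 15687 tested genes 328 were lower and 758 higher. Without the block none of these synapse and channel genes was lower. Cell type markers moved beside them. Pan-neuronal markers had a median of -0.06 with no call among 11, excitatory neuron markers -0.09 with no call among 9, and interneuron markers -0.10 with Gad2 the 1 call among 10. Oligodendrocyte lineage markers had the lowest median, -0.14, with 5 of 9 lower at an unadjusted p under 0.05; 1 was called, the lineage factor gene Sox10, which fell from 4.22 and 8.93 cRPKM to 2.97 and 7.75 (log2 -0.36 ± 0.06, edgeR adjusted p = 0.017) with overlapping groups. Their summed level was 219 to 306 cRPKM untreated and 212 to 267.5 at 0.5 h. Astrocyte markers had a median of 0.05 and no call among 9. The part of these cell types in the small changes was not tested.

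**Figure D5:**
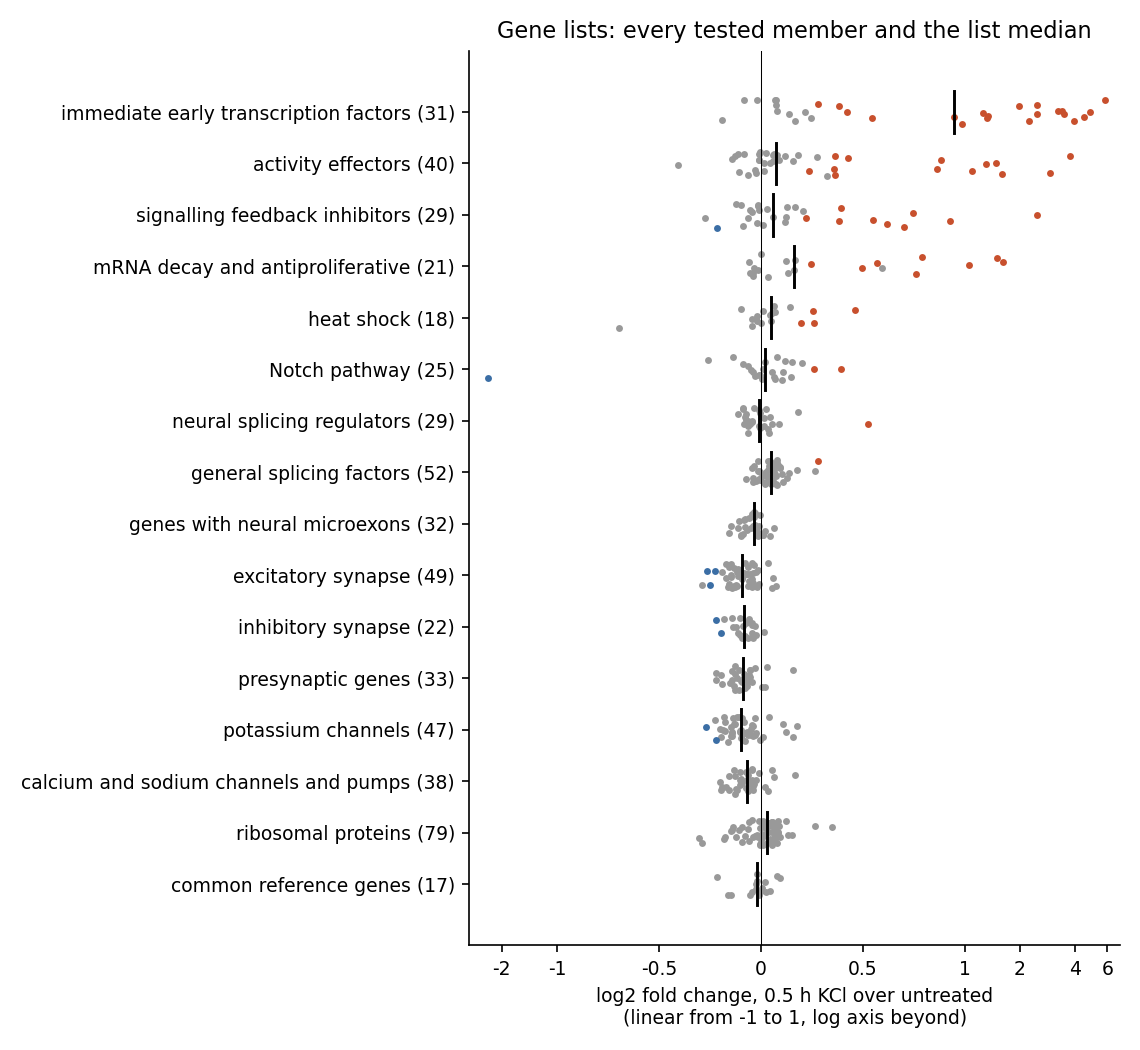
Log2 fold change of each tested member of 16 gene lists (points, number of members in brackets) with the list median (bar). The axis is linear from -1 to 1 and logarithmic beyond. Red points were called higher and blue points lower. Immediate early transcription factors have a median of 0.95, synapse and channel lists lie just below 0, and ribosomal proteins and common reference genes have medians of 0.03 and -0.02.

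RNA-processing genes, the subject of the study's title, gave calls about as rarely as tested genes in general, of which 1.249% rose and 0.4972% fell. Of 29 neural splicing regulators 1 rose: Ptbp1, a repressor of neuronal exons, from 16.8 and 14.04 cRPKM to 22.4 and 22.5 (log2 0.53 ± 0.05, edgeR adjusted p = 1.67e-04), without overlap. Srrm4, the activator of neural microexons, was at 13.0 and 12.3 cRPKM untreated and 12.7 and 11.9 at 0.5 h (interval -0.15 to 0.01). Of 52 general splicing factors only Clk4, a kinase of SR proteins, passed (16.48 and 20.2 cRPKM, then 22.1 and 22.8; 0.28 ± 0.06), and all 52 stayed within 1.5-fold. Of 32 genes with neural microexons none passed in edgeR, DESeq2 or limma-voom (5 lower at an unadjusted p under 0.05), and all 32 stayed within 1.5-fold, as did 98.5% of all genes at 1 cRPKM or more. These are gene totals, which carry no measure of exon inclusion.

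Among stress and metabolic lists, heat shock genes had the most calls. Of the 18 tested 4 rose, where 1.249% of all tested genes did, led by the co-chaperone gene Bag3 (1.66 and 2.5 cRPKM, then 2.20 and 3.67; log2 0.46 ± 0.07) and Dnajb1 (17.0 and 17.3, then 20.7 and 20.9; 0.26 ± 0.04), with Hsf1 and Dnajb4 at 0.26 and 0.20. Only in Dnajb1 did the groups not overlap. One member passed in each of the lists for the unfolded protein response (Dnajb9, 0.20), clock genes (Per1, from 12.6 and 15.01 to 17.1 and 23.7 cRPKM, 0.53 ± 0.05), BMP targets and Id genes (Bambi, 0.64) and serum response factor and actin targets (Flna, 0.23), all higher. Atf4 and Hdac7 rose among 23 CREB factors and coactivators, by 0.20 and 0.22. No gene passed in edgeR, DESeq2 or limma-voom in the lists for p53 and apoptosis (21 genes, 3 higher and 1 lower at an unadjusted p under 0.05), sterol synthesis (19 genes, 8 lower unadjusted, where 8.41% of all tested genes were), or microglial, endothelial, fibroblast and erythroid markers. Only 2 of 6 microglial, 3 of 7 endothelial and 0 of 3 erythroid markers could be placed within 1.5-fold, against 7 of 7 fibroblast markers. Of all tested genes 86.8% could. For markers not placed there, the lack of a call does not show that they held. In the list of 23 glycolysis genes Txnip and Pgam1 (-0.23) fell, where 0.4972% of all tested genes did. The estimate for Pgam1 turned to 0.33 without untreated replicate 1 and to 0.18 without KCl replicate 2, and DESeq2 did not call it (adjusted p = 0.20).

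Most genes were held within a stated bound, which says more than that they were not called. The 95% interval lay within a 1.5-fold change either way for 13615 of 15687 tested genes (86.8%), and for 98.5% of the 12289 genes at 1 cRPKM or more. Below 1 cRPKM that share was 44.6% of 3398 genes, where the median interval reached 0.44 to each side on the log2 scale against 0.09 above it. Of the 1974 genes neither called nor shown to lie within the bound, 1857 were under 1 cRPKM. The bound and the test are different questions: 176 called genes also lay within 1.5-fold. The count within the bound depended on the fit too: without the block it was 10444 of the 15687 genes. With all 6 libraries it was 12163 of 15895 genes with the block and 9436 without it.

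The most abundant transcripts were among those that held. Actb was at 1481 and 1333 cRPKM untreated and 1512 and 1385 at 0.5 h (interval -0.10 to 0.14 on the log2 scale), mt-Co1 at 8273 and 7565 and then 8028 and 7891 (-0.19 to 0.16), and Rplp1 at 2342 and 2522 and then 2339 and 2625 (-0.08 to 0.09). No member passed in edgeR among 17 common reference genes, 79 ribosomal protein genes, 83 nuclear respiratory chain genes and 12 mitochondrially encoded genes, with 1, 10, 2 and 1 of them at an unadjusted p under 0.05 (DESeq2 called 1 reference gene lower). Within 1.5-fold stayed 17, 77, 81 and 12 of them. Among all tested genes 8.22% were higher and 8.41% lower at an unadjusted edgeR p under 0.05, and 86.8% stayed within 1.5-fold. Snap25, a synaptic vesicle fusion gene, was at 260.3 and 293 cRPKM and then 252 and 286 (-0.16 to 0.04).

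Genes that rose had short gene models. Among protein-coding genes the median gene length was 10.3 kb for the 190 that rose and 5.24 kb for the 32 that rose at least 2-fold, against 25 kb for all 15162 tested and 18.9 kb for the 70 that fell. The median number of exons was 5, 3, 9 and 4 in the same order. Genes of at most 10 kb were 48.9% of those that rose, 75% of those that rose at least 2-fold and 23.8% of all. Among those that fell 22.9% had 1 exon, against 2.95% of all. The median 3' UTR was 1094 bases in genes that rose, 2115 in genes that fell and 1084 in all. Fos spans 3.38 kb, Arc 3.49 kb and Hes5 1.45 kb.

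The 3 h libraries show where the rapid genes stood later. They share the untreated controls, so levels are given side by side with no test. Of the 20 named rises, 9 were farther from untreated in both 3 h libraries than in either 0.5 h library, and 3 had moved back in both. Nr4a2 was at 142 and 93.8 cRPKM at 3 h, above the 29.9 and 29.0 of 0.5 h, and Maff at 24.8 and 20.01, above 4.24 and 5.71. Egr1 stood at 48.8 and 39.7 cRPKM and Egr2 at 4.92 and 5.57, both below their 0.5 h levels. Of the genes not called at 0.5 h, Bdnf was at 55.5 and 42.4 cRPKM, Nr4a3 at 207 and 194 and Fosl1 at 8.16 and 4.61. Among the 15 named falls 8 were lower still in both 3 h libraries, such as Txnip at 2.17 and 5.78 cRPKM, and Hes5 was at 6.67 and 1.70, on either side of its 0.5 h levels.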

How the data were processed

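RNA was prepared with TriReagent and the TruSeq RNA kit v2, per the labels. The submitters' processing notes name mm9 and Bowtie; versions, gene annotation and read assignment: not given in the sources used here. For each library the authors deposited a whole-number read count per gene, not normalized, and an RPKM value named cRPKM, defined in no source used here. Over 7690 genes with at least 2000 counts, the ratio of count to cRPKM followed the library totals within 0.381%. Of 22667 listed genes 1114 have no value. Symbols and gene features came from GENCODE M21 on GRCm38, a later build (20451 of 21553 identifiers matched, 94.9%).

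For the 4 libraries edgeR 4.0.16 (R 4.3.3) was run on the counts, scaled by TMM after filterByExpr at its minimum count of 10 (15687 genes), with a quasi-likelihood fit of group and replicate number, Benjamini-Hochberg adjustment over all tested genes, threshold 0.05. SE is the log2 change over the root of F, and 95% intervals use the total degrees of freedom. Only 1 residual degree of freedom per gene is left, so the spread is borrowed across genes. The pairing of numbers comes from the data: the labels give only a shared number, and differences between replicates correlated with r = 0.83 between both groups over 15687 genes, which are not independent. Alternatives were DESeq2 1.42.0, limma 3.58.1 and those listed after the report. The code was tested on simulated data, where the share of false calls was above the nominal level, so some of the calls here may be false.

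Named genes were the 20 largest rises and 15 largest falls past the threshold among genes with a symbol, at 1 cRPKM or more on average and without overlap of the groups, genes of both directions below it with at least 1.5-fold in both pairs, fixed genes, and from each of 39 lists up to 4 members with the smallest p and up to 3 abundant members within 1.5-fold. Further list members, Ttr, Fzd5, Grin2b and Nes were named after their values were seen; some genes this rule names are not reported here. The comparison, members and lists were chosen with earlier results of these data known. Intervals do not cover differences between cultures.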

Additional observations from a re-analysis of the deposited data

How the results depend on the processing

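In place of 196 rises, 78 falls and 13615 genes within 1.5-fold, the same 4 libraries with no replicate block gave 4, 0 and 10444. At an unadjusted edgeR p under 0.05 that fit had 150 rises and 51 falls. All 6 libraries gave 13, 0 and 12163 with the replicate block and 6, 0 and 9436 without it. Library totals gave 758 rises and 328 falls, no filter on low counts 529 and 521, DESeq2 with the block 112 and 44. Falls came to 174 with DESeq2's size factors in edgeR and 152 with a minimum count of 100. Without each of the 4 libraries in turn, with the other 5 and the block, there were 25 to 31 rises (29 without untreated replicate 2), 0 to 1 falls and 8820 to 10629 genes within 1.5-fold; here the lone sample of an arm is assumed to vary like the other groups. The remaining settings, limma-voom, edgeR's robust prior (added after the data were seen), a narrower and a wider bound and a 90% interval, stayed within 1.5 times these counts. Other scalings moved the median log2 change of all genes by -0.0059 and 0.0217.

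Of 89 called genes named here, 1 changed sign in a fit of the same 4 libraries, Ttr (-0.045 with DESeq2); DESeq2 kept 66 past the threshold, limma-voom 86, and the unblocked fit 4. Ttr also turned to -0.061 without untreated replicate 2 and -0.84 without KCl replicate 2. Without untreated replicate 2 Grin2a turned to 0.078, without untreated replicate 1 Pgam1 turned to 0.33 and without KCl replicate 2 to 0.18, on the log2 scale. Fosl1, not called, turned to -0.16 without untreated replicate 1 and -0.73 without KCl replicate 2. In 129 genes (104 rises, 25 falls) the call held in all 8 fits of the 4 libraries with the block. Differences between replicates correlated with r = 0.83, a hint from the data that the numbers pair the samples. Below 1 cRPKM, 44.6% of tested genes could be placed within the 1.5-fold bound.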
